A study of Mus musculus with 8 samples.

Results

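The Kruppel-like factor genes examined here were Klf2, Klf3, Klf4, Klf6, Klf7, Klf10, Klf13 and Klf16, chosen by name as rows of the deposited expression table. All 8 were among its 13744 genes, and all 8 passed the filter on low values together with 12752 genes in all. RNA had been sequenced from classical monocytes (Ly6C-high cells) of the mouse bone marrow in 4 genotypes, labelled Bcl6 cKO, Irf2 KO, Nr4a1 KO and wild type, with 2 libraries each and 8 in all. The comparisons with wild type ask how loss of each of these transcription factors shows in classical monocytes, the precursors of Ly6C-low nonclassical monocytes. The labels used here give neither the Cre driver of the conditional Bcl6 deletion, nor the deleted exons, nor age, sex and strain. They do not tie the replicates to separate animals either, so the p-values describe the spread between these libraries, which may be technical.

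Kruppel-like factors are transcription factors that bind GC-rich and CACCC sequences through C2H2 zinc fingers at their carboxyl end. Members with activating domains recruit acetyltransferases (Klf2, Klf4, Klf6 and Klf7), Klf3 recruits the corepressor CtBP, and Klf10, Klf13 and Klf16 recruit Sin3 and histone deacetylases. Within myeloid cells Klf4 is known as a factor that monocytes need for their formation, Klf2 as a restraint on inflammatory activation, and Klf6 as a promoter of it. Several members, Klf10 among them, are also known as rapidly induced genes.

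Of the 8 members, only Klf10 passed the test against wild type under the reported settings, and it did so in Irf2 KO. Klf10 fell there by 0.87 ± 0.12 on the log2 scale (SE, n = 2 per genotype), which is 1.83-fold. In bulk RNA such as this, fewer cells of a type and less RNA per cell cannot be told apart. Klf3 was lower in Irf2 KO and in the libraries labelled Bcl6 cKO than in Nr4a1 KO, although none of those genotypes passed against wild type. Klf4 was 1.36-fold higher in the libraries labelled Bcl6 cKO than in wild type, at the edge of the threshold. No call against wild type was made for Klf2, Klf6, Klf7, Klf13 or Klf16.

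Libraries held 46617756 to 62633123 reads assigned to genes, and levels are given in CPM (reads scaled to the library total). The classical monocyte markers Ly6c2, at 2884 to 6247 CPM over the 8 libraries, and Ccr2, at 911 to 1724 CPM, were abundant in all of them. Nr4a1 lay at 4.99 and 7.90 CPM in Nr4a1 KO, against 24.9 and 39.1 CPM in wild type. It was low in Irf2 KO too, at 6.04 and 5.72 CPM, so a low Nr4a1 level is not particular to Nr4a1 KO. Bcl6 also fell in Irf2 KO (-1.07 ± 0.16 on the log2 scale, adjusted p = 0.00382, limma). Irf2 lay at 90.2 and 104 CPM in Irf2 KO, against 145 and 141 CPM in wild type. Bcl6 measured 92.4 and 84.4 CPM in the libraries labelled Bcl6 cKO, 3.52-fold more than the 25.3 and 24.9 CPM of wild type. A value counts reads over the whole gene, so it does not test whether exons were lost, and directions drawn from these libraries rest on their label.

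Promoter sequences of Klf2 and Klf3 are shown here because they hold the letters of 2 known kinds of element, the MEF2 core in Klf2 and the CACCC box of the family in Klf3; no value here measures activity at either. They come from RefSeq on GRCm38.p6, whose table held 6 of the 8 members (Klf2, Klf3, Klf4, Klf6, Klf7 and Klf13). Each printed stretch lies before the first annotated start and is read along the plus strand, which is the strand of the gene. Capitals mark the MEF2 core TAAATTTA in Klf2 (chr8:72318812-72319032) and the CACCC box, read on the other strand as GGGTG, in Klf3 (chr5:64803271-64803387).
Klf2: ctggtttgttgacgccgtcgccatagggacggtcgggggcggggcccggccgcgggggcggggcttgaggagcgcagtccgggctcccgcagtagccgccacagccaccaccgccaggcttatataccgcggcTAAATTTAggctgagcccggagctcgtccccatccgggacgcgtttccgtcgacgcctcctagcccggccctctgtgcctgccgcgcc
Klf3: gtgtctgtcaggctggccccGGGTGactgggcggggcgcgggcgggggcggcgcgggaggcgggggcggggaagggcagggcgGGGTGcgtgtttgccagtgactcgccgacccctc

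The MEF2 core stood 117 bases before the RefSeq start of Klf2, and 0.502% of 32851 promoter stretches of the same 250 bases held it on either strand. The full 250 bases before the RefSeq start of Klf3 held 5 CACCC boxes, counted on both strands with overlaps allowed, and 0.667% of promoter stretches held at least as many. They also held 6 GC boxes (GGGCGG), against 4 for Klf4, 3 for Klf13, 2 for Klf2 and 1 each for Klf6 and Klf7. A GC box was present in 32.7% of all stretches and a CACCC box in 52.0%. GC content was 78.4% in the Klf3 stretch and 59.2% in that of Klf7, the lowest of the 6, against a median of 52.4% over all stretches. The part of GC content in these motif counts was not tested. None of the 6 member stretches held the letters GAAANNGAA of IRF sites (7.13% of all stretches), TTCNNNGAA of BCL6 and STAT sites (7.02%) or AAAGGTCA of NR4A sites (1.34%), which says only that these letters are not in these windows. The windows of 250 bases were set by the RefSeq start. Only 117 bases of the Klf3 window and 0 of the Klf7 window lie before the first annotated start, and the rest lies within the annotated gene.

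Levels per length were compared first, as CPM per kilobase of merged exons. Klf13, known as an activator of the chemokine gene Ccl5 in human T cells, was the highest member in every genotype, at 190.1 ± 2.37 CPM per kilobase in the libraries labelled Bcl6 cKO, 142 ± 19.8 CPM per kilobase in Irf2 KO, 192 ± 63.2 in Nr4a1 KO and 193 ± 5.09 in wild type (SD, n = 2 each). In wild type the order was then Klf6 (82.6 ± 5.31 CPM per kilobase), Klf4 (70.7 ± 0.45), Klf10 (62.4 ± 4.80), Klf2 (11.4 ± 2.83), Klf3 (6.43 ± 0.14), Klf16 (2.58 ± 0.37) and Klf7 (1.82 ± 0.49), SD and n = 2 for each. The wild-type libraries of neighbours in that order did not overlap. The order depends on the merged length of all annotated exons, 11243 bases for Klf3 and 1847 for Klf2, which may differ from the transcripts present. In CPM alone, wild-type Klf3 (71.2 and 73.4) stood above Klf2 (17.3 and 24.7). Neighbours did overlap for Klf4 and Klf6 in the libraries labelled Bcl6 cKO, and for Klf6 and Klf4, Klf4 and Klf10, and Klf2 and Klf3 in Nr4a1 KO. Klf7 stood above Klf16 in Nr4a1 KO and below it in the other genotypes, all per kilobase.

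**Figure D1:**
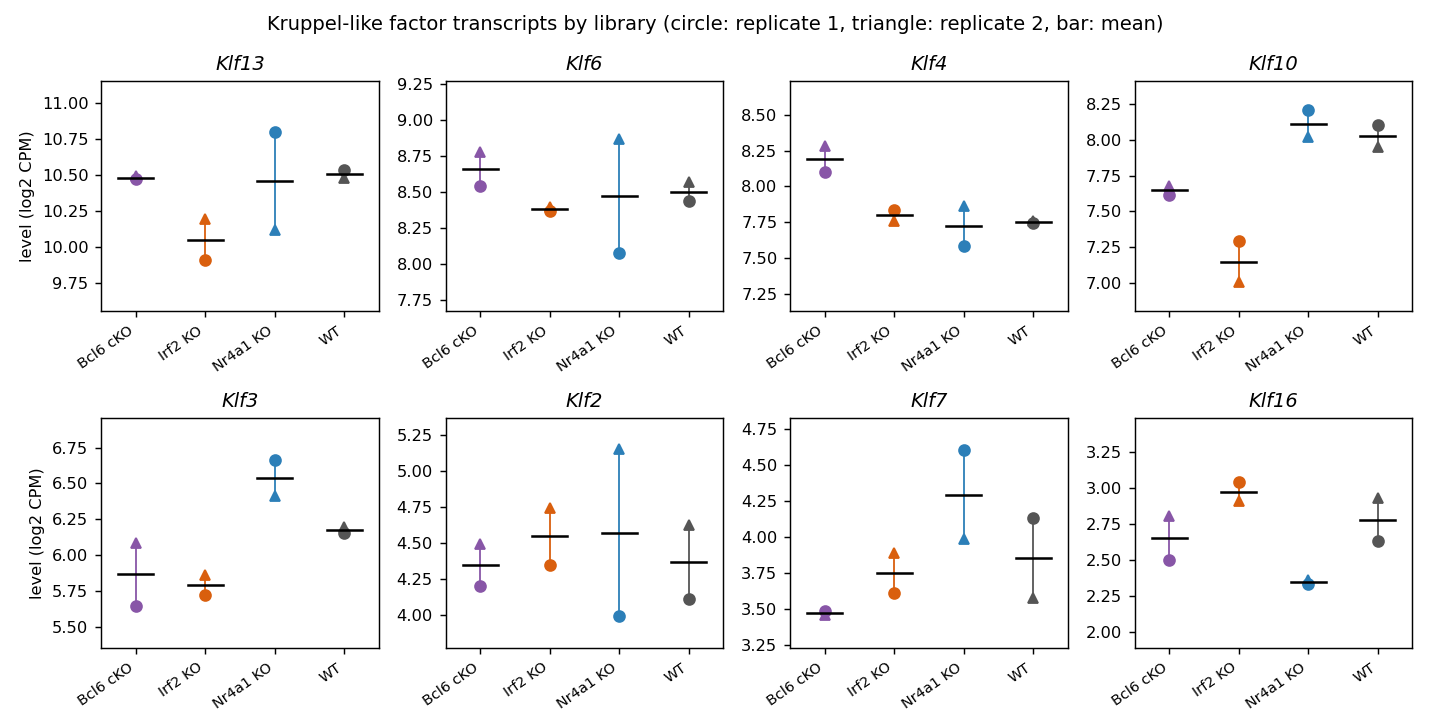
Level of each member in log2 CPM (vertical axes, each spanning the same range) in the 2 libraries of each genotype, with circles for replicate 1, triangles for replicate 2 and a bar for the mean. Klf10 is lowest in both Irf2 KO libraries (157 and 129 CPM), Klf4 is highest in both libraries labelled Bcl6 cKO (274 and 311 CPM), and the Nr4a1 KO libraries lie far apart for Klf2, Klf6 and Klf13.

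Among the activating members, Klf4 (chromosome 4, 55527143 to 55532466 on GRCm38) showed the only change near the threshold. Its level was 274 and 311 CPM in the libraries labelled Bcl6 cKO, 229 and 217 CPM in Irf2 KO, 192 and 233 CPM in Nr4a1 KO, and 214 and 216 CPM in wild type. Both libraries labelled Bcl6 cKO lay above all 6 others, while Nr4a1 KO straddled wild type. The difference between the libraries labelled Bcl6 cKO and wild type was 0.44 ± 0.11 on the log2 scale (95% interval 0.18 to 0.70), with adjusted p = 0.0668 in limma (Benjamini-Hochberg over 12752 genes). The authors' deposited table put the same difference at 0.44 with adjusted p = 0.0435. Over 20 alternatives the adjusted p ran from 0.0215 to 0.316 and passed in 9. Leaving out either Nr4a1 KO library gave a call (0.0311 and 0.0304), and leaving out any library of the 2 genotypes compared did not. Against Irf2 KO (0.39 ± 0.11, adjusted p = 0.0672) and Nr4a1 KO (0.46 ± 0.11, adjusted p = 0.0523) the libraries labelled Bcl6 cKO missed the threshold as well. Klf4 in Irf2 KO differed from wild type by 0.05 (95% interval -0.21 to 0.31) and in Nr4a1 KO by -0.02 (95% interval -0.28 to 0.24), so a change of 1.24-fold or more in Irf2 KO lies outside the interval.

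Klf2 (chromosome 8, 72319033 to 72321656) varied more between replicates than between genotypes. It measured 18.4 and 22.5 CPM in the libraries labelled Bcl6 cKO, 20.4 and 26.8 CPM in Irf2 KO, 15.9 and 35.6 CPM in Nr4a1 KO, and 17.3 and 24.7 CPM in wild type. Replicate 2 was the higher library in every genotype, by 2.24-fold in Nr4a1 KO, and all genotypes overlapped. The difference from wild type was -0.02 on the log2 scale for Bcl6 cKO (95% interval -0.82 to 0.78), 0.18 for Irf2 KO (-0.62 to 0.98) and 0.20 for Nr4a1 KO (-0.59 to 1.0). Thus the intervals for this gene include changes of up to about 2.0-fold. The pooled SD within genotypes was 0.48 log2 units for Klf2, against a median of 0.16 over 2092 genes within 0.5 log2 units of its level.

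Klf6 (chromosome 13, 5861482 to 5870394) stood at 372 and 439 CPM in the libraries labelled Bcl6 cKO, 331 and 337 CPM in Irf2 KO, 269 and 467 CPM in Nr4a1 KO, and 346 and 379 CPM in wild type. The Nr4a1 KO libraries enclosed all 6 others. Differences from wild type lay between -0.12 and 0.16 on the log2 scale, with adjusted p of 0.731 for Bcl6 cKO, 0.730 for Irf2 KO and 0.939 for Nr4a1 KO. Klf7 (chromosome 1, 64029447 to 64122282), best known from neuron development, measured 11.2 and 10.97 CPM in the libraries labelled Bcl6 cKO, 12.2 and 14.8 CPM in Irf2 KO, 24.4 and 15.8 CPM in Nr4a1 KO, and 17.6 and 12.0 CPM in wild type. Both libraries labelled Bcl6 cKO were the lowest, and both Nr4a1 KO libraries lay above Irf2 KO, but each Klf7 comparison missed the threshold. The widest gap, Bcl6 cKO against Nr4a1 KO, was -0.83 ± 0.25 on the log2 scale with adjusted p = 0.112. Over 19 alternatives it ran from -1.14 to -0.52 and passed in only 1, the fit without Nr4a1 KO replicate 2.

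**Figure D2:**
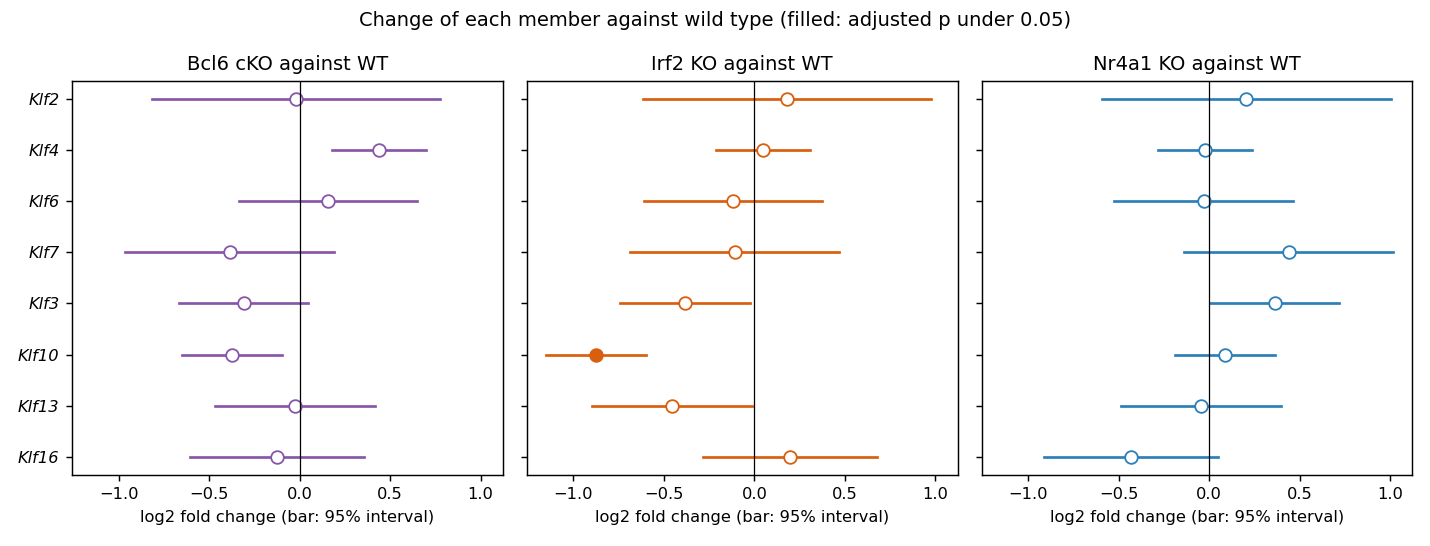
Log2 fold change of each member against wild type (horizontal axes), 1 panel per knockout genotype, with 95% intervals from limma and filled points for adjusted p under 0.05. Klf10 in Irf2 KO (-0.87) is the only filled point, and the Klf2 intervals are the widest.

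Klf3 (chromosome 5, 64803388 to 64832901), a CtBP-recruiting repressor known from red cells and B cells, separated Nr4a1 KO from the other knockouts. Its level was 50.2 and 67.8 CPM in the libraries labelled Bcl6 cKO, 52.9 and 58.1 CPM in Irf2 KO, 101 and 85.1 CPM in Nr4a1 KO, and 71.2 and 73.4 CPM in wild type. Each knockout lay wholly on one side of wild type, below it in Bcl6 cKO and Irf2 KO and above it in Nr4a1 KO. Against wild type the differences were -0.31 ± 0.16 (adjusted p = 0.297), -0.38 ± 0.16 (adjusted p = 0.115) and 0.36 ± 0.16 (adjusted p = 0.160), in that order of genotypes. Between knockouts, Irf2 KO was lower than Nr4a1 KO by 1.68-fold (-0.75 ± 0.16, adjusted p = 0.0111). Leaving out Irf2 KO replicate 1 (adjusted p = 0.0663) or Nr4a1 KO replicate 1 (adjusted p = 0.0513) removed that call. The libraries labelled Bcl6 cKO were lower than Nr4a1 KO by 1.59-fold (-0.67 ± 0.16, adjusted p = 0.0422), a call made in 8 of 19 alternatives. It ended without either wild-type library (0.0673 and 0.0663), either Irf2 KO library (0.0672 and 0.0665), Bcl6 cKO replicate 1 (0.237) or Nr4a1 KO replicate 1 (0.148).

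Klf8, a family member that Klf3 is known to repress in mouse red cell precursors, measured 5.77 and 6.71 CPM in Irf2 KO, against 2.66 and 2.50 CPM in wild type. It rose by 1.27 ± 0.31 on the log2 scale (adjusted p = 0.0224). It missed the threshold when any library of wild type or Irf2 KO was left out, at adjusted p of 0.0707 to 0.116. In the other knockouts Klf8 lay above wild type too, at 5.49 and 4.65 CPM in the libraries labelled Bcl6 cKO and 3.17 and 5.89 CPM in Nr4a1 KO, with adjusted p of 0.119 and 0.146.

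Klf10 (chromosome 15, 38291463 to 38300706), first described as a TGF-beta-inducible early gene and a Sin3-recruiting repressor, carried the clearest difference of the family. It measured 157 and 129 CPM in Irf2 KO (7586 and 7037 reads), 196 and 205 CPM in the libraries labelled Bcl6 cKO, 295 and 259 CPM in Nr4a1 KO, and 275 and 246 CPM in wild type. The Irf2 KO libraries lay below all 6 others, the libraries labelled Bcl6 cKO came next, and Nr4a1 KO overlapped wild type. The fall in Irf2 KO (-0.87 ± 0.12, adjusted p = 0.00308, limma) was 1.83-fold with a 95% interval of 1.51-fold to 2.22-fold, and it passed in all 20 alternatives with adjusted p from 0.00160 to 0.0214. Such calls were common, since 12.3% of all tested genes were lower in Irf2 KO and 21.6% were called in either direction, against 1 of 8 members here. Klf10 in Irf2 KO was also lower than in Nr4a1 KO (-0.96 ± 0.12, adjusted p = 0.000986), in all 19 alternatives.

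Klf10 in the libraries labelled Bcl6 cKO was 1.41-fold higher than in Irf2 KO (0.50 ± 0.12, adjusted p = 0.0393). This call was made in 12 of 19 alternatives. It ended with no trend of the prior variance (0.107) and under quantile normalization (0.0506). It also ended without either wild-type library, either library labelled Bcl6 cKO or Irf2 KO replicate 2. Compared with wild type, the libraries labelled Bcl6 cKO stood at -0.38 ± 0.12 (95% interval -0.65 to -0.10, adjusted p = 0.122). The difference between Nr4a1 KO and wild type was 0.09 ± 0.12 (95% interval -0.19 to 0.36, adjusted p = 0.680).

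By Pearson correlation over the 8 libraries among 8847 other protein-coding genes, the patterns most like Klf10 were those of Kdm2a, a histone demethylase gene (r = 0.98), and Tmem19, a membrane protein gene (r = 0.98). Kdm2a measured 5.86 and 5.75 log2 CPM in Irf2 KO, against 6.27 and 6.26 log2 CPM in wild type. Among the other members, r with Klf10 ran from -0.67 for Klf16 to 0.78 for Klf3. Libraries of one genotype are not independent points, so these values are descriptions.

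Klf13 (chromosome 7, 63886351 to 63938915) stood at 961 and 1172 CPM in Irf2 KO, 1419 and 1444 CPM in the libraries labelled Bcl6 cKO, 1785 and 1112 CPM in Nr4a1 KO, and 1483 and 1429 CPM in wild type. Irf2 KO lay wholly below wild type, and Nr4a1 KO spread over most of the range. The difference of Irf2 KO from wild type was -0.46 ± 0.19 (95% interval -0.90 to -0.01, adjusted p = 0.127). The spread of the Nr4a1 KO libraries entered that SE. Over 20 alternatives the same difference ran from -0.60 to -0.19 on the log2 scale and passed in 3. Each of those 3 fits left out at least 1 Nr4a1 KO library. The Ccl5 level was 0.44 and 1.62 CPM in Irf2 KO, against 3.25 and 2.45 CPM in wild type (-1.73 ± 0.56, adjusted p = 0.0575). Those Irf2 KO values rest on 21 and 88 reads. Ccl5 measured 2.27 and 4.13 CPM in the libraries labelled Bcl6 cKO. It stood at 7.42 and 6.98 CPM in Nr4a1 KO, whose Klf13 values lay on both sides of wild type. Any link between the Klf13 and Ccl5 levels was not tested.

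Klf16 (chromosome 10, 80567124 to 80577321), another Sin3-recruiting member, made no call. It measured 5.65 and 7.004 CPM in the libraries labelled Bcl6 cKO, 8.25 and 7.50 CPM in Irf2 KO, 5.05 and 5.14 CPM in Nr4a1 KO, and 6.20 and 7.61 CPM in wild type. Both Nr4a1 KO libraries were lower than the 6 others, at -0.43 ± 0.21 against wild type (adjusted p = 0.209). Irf2 KO exceeded Nr4a1 KO by 0.63 ± 0.21 on the log2 scale (adjusted p = 0.0650).

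The counts over the family stayed near those of all genes. In the libraries labelled Bcl6 cKO, limma called 0 of 8 members (2 at an unadjusted p under 0.05, and 0 by voom), beside 5.01% of all genes. Irf2 KO had 1 of 8 called by either tool (3 at an unadjusted p under 0.05), beside 21.6%. For Nr4a1 KO, 0 of 8 were called (1 at an unadjusted p under 0.05, and 0 by voom), beside 15.1%. The median log2 fold changes of the members were -0.08, -0.11 and 0.03 in that order, against -0.01, -0.04 and 0.01 over all tested genes. Between knockouts, 2 of 8 members were called for Irf2 KO against Nr4a1 KO (22.3% of all genes called, 9.94% as lower), 1 for Bcl6 cKO against Irf2 KO (9.55%, and 5.68% as higher) and 1 for Bcl6 cKO against Nr4a1 KO (5.75%, and 0.776% as lower). The comparisons with wild type share the wild-type libraries.

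Genes known upstream of the family, TGF-beta signalling among them, were described next. Of 18, 3 fell and 0 rose in Irf2 KO, near the 12.3% of all genes called lower there, with a median of -0.27 on the log2 scale beside -0.04 for all genes. The fall of Tgfbr2, the ligand-binding TGF-beta receptor, was the largest, at 2.20 and 3.31 CPM in Irf2 KO, against 9.93 and 9.38 CPM in wild type (-1.84 ± 0.27, adjusted p = 0.00355), and it passed in all 20 alternatives. Tgfbr2 measured 7.27 and 8.06 CPM in the libraries labelled Bcl6 cKO and 16.9 and 11.3 CPM in Nr4a1 KO. Any link of these genes to the Klf10 level was not tested. Smad3, which carries the signal to the nucleus, was at 6.39 and 3.60 CPM in Irf2 KO, against 9.61 and 11.2 CPM in wild type (-1.12 ± 0.33, adjusted p = 0.0437). The Smad3 call ended in 10 of 20 alternatives, among them the fits without wild-type replicate 1 or 2 (0.100 and 0.176), either library labelled Bcl6 cKO (0.0681 and 0.0671) or Irf2 KO replicate 2 (0.231).

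Tgfb1, the ligand gene and a reported Klf6 target, fell in Irf2 KO to 9.53 and 9.31 CPM, against 15.3 and 19.01 CPM in wild type (-0.85 ± 0.17, adjusted p = 0.0112). It did not hold when either Irf2 KO library (0.0517 and 0.0595) or wild-type replicate 2 (0.0718) was left out. Smad7, the inhibitory Smad that Klf10 represses in human cell lines, was low throughout and was named after its values were seen. It measured 0.92 and 1.42 CPM in Irf2 KO, 1.11 and 1.22 CPM in the libraries labelled Bcl6 cKO and 1.54 and 1.12 CPM in Nr4a1 KO, against 3.03 and 3.69 CPM in wild type. All 3 comparisons passed (adjusted p = 0.0175, 0.0441 and 0.0350, in that order), and each call ended without either wild-type library, with adjusted p up to 0.101, 0.212 and 0.175. The calls also ended without Irf2 KO replicate 1 (0.0950) for Irf2 KO, without either library labelled Bcl6 cKO (0.222 and 0.176) or Irf2 KO replicate 2 (0.0526) for Bcl6 cKO, and without either library labelled Bcl6 cKO (0.0614 and 0.0621) or Nr4a1 KO replicate 2 (0.129) for Nr4a1 KO. The correction for GC content and length also ended the Smad7 calls for Bcl6 cKO (0.0927) and Nr4a1 KO (0.108), and the Smad7 calls held in 15 of 19 alternatives for Irf2 KO and in 9 of 19 for each of the others. Tgfbr1 (-0.48 ± 0.16, adjusted p = 0.0601), Smad2 (-0.33 ± 0.12, adjusted p = 0.0905) and Smad4 (-0.18 ± 0.13, adjusted p = 0.371) did not pass in Irf2 KO.

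**Figure D3:**
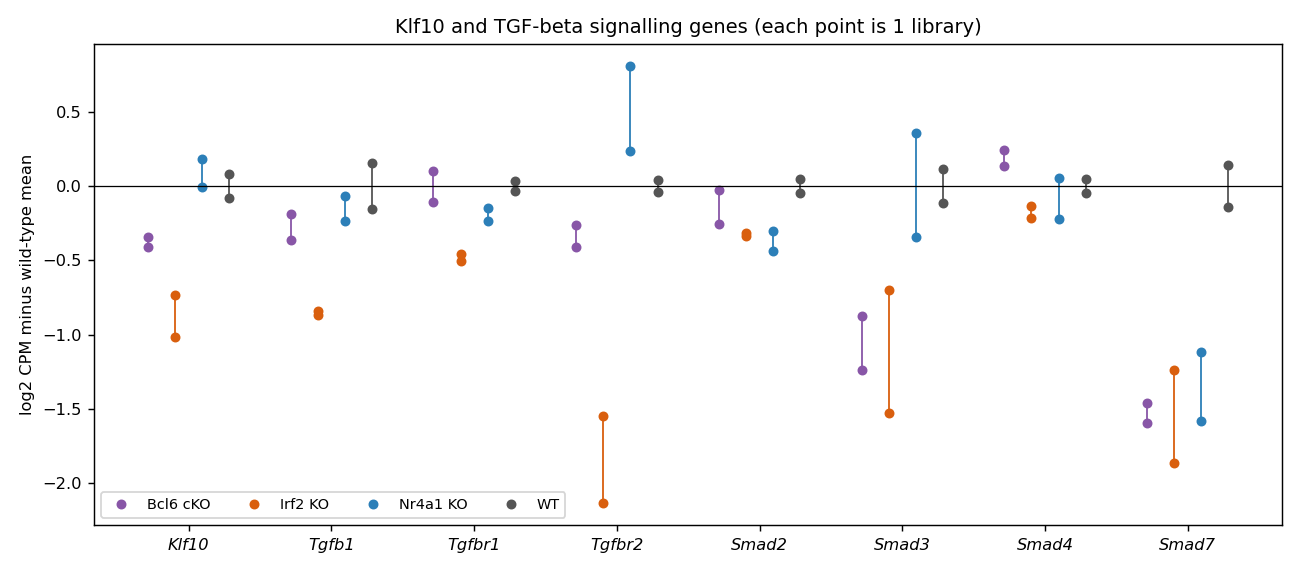
Log2 CPM of Klf10 and of TGF-beta signalling genes relative to the wild-type mean of each gene (vertical axis), 1 point per library and the 2 libraries of a genotype joined by a line. Klf10, Tgfb1 and Tgfbr2 are lowest in Irf2 KO, whereas Smad7 is below wild type in every knockout library.

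Immediate early genes, the class of rapidly induced genes to which Klf10 also belongs, were set beside it in Irf2 KO. Of 16 tested, 4 fell and 0 rose, beside 12.3% of all genes called lower, with a median log2 fold change of -0.40 beside -0.04 for all genes. Btg2, an antiproliferative gene, was at 95.1 and 112 CPM in Irf2 KO, against 249 and 281 CPM in wild type (-1.36 ± 0.14, adjusted p = 0.00149), and passed in all 20 alternatives. Nr4a1 itself fell in Irf2 KO (-2.41 ± 0.27, adjusted p = 0.00163). The other falls were Zfp36, an mRNA-decay factor gene (-0.77 ± 0.19, adjusted p = 0.0217), and Junb, an AP-1 subunit gene (-1.11 ± 0.34, adjusted p = 0.0475). Zfp36 missed the threshold without either wild-type library (0.0601 and 0.109) or Irf2 KO replicate 1 (0.123), and the Junb call without either wild-type library (0.221 and 0.0635), either library labelled Bcl6 cKO (0.0558 and 0.0559) or Irf2 KO replicate 1 (0.245). After the correction for GC content and length neither passed (0.0631 for Zfp36 and 0.110 for Junb), and Junb held in 9 of 20 alternatives. In the libraries labelled Bcl6 cKO 0 of 16 passed in limma (3 at an unadjusted p under 0.05), beside 5.01% of all genes. In Nr4a1 KO only the targeted Nr4a1 passed, beside 15.1% of all genes. Replicate 2 was the higher library for 15 of 16 immediate early genes in the libraries labelled Bcl6 cKO and in Nr4a1 KO, for 12 in Irf2 KO and for 10 in wild type. Their part in the replicate gaps of Klf2 and Klf6 was not tested.

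Markers of other cell types and stages were also set beside these values. In Irf2 KO, 5 of 9 classical monocyte markers fell, and their sum was 21186 and 23597 CPM, against 33853 and 38825 CPM in wild type. Lyz2, the lysozyme gene, made up most of that sum, at 11573 and 12697 CPM in Irf2 KO, against 23089 and 26800 CPM in wild type. Ly6c2 lay at 5003 and 6247 CPM in Irf2 KO, against 3747 and 4755 CPM in wild type, and was not called (adjusted p = 0.278). All counts of markers here stand beside 12.3% of all genes called lower and 21.6% called in either direction. Of 13 neutrophil markers 7 fell, and their summed level was 616 and 1279 CPM in Irf2 KO, against 2521 and 2252 CPM in wild type. Of 6 tested markers of early myeloid cells 5 rose and 1 fell, and their sum was 3569 and 4554 CPM in Irf2 KO, against 1685 and 1943 CPM in wild type. The summed nonclassical monocyte markers (6 of 10 fell) came to 326 and 282 CPM, against 570 and 705 CPM in wild type. The sums were 43.8 and 38.1 CPM against 89.0 and 88.3 CPM for B cell markers (3 of 4 tested fell, Ebf1 at 0 reads in an Irf2 KO library), and 54.0 and 54.7 CPM against 99.8 and 123 CPM for dendritic cell markers (3 of 6 fell), with wild type second. Red cell marker sums were 2.62 and 4.87 CPM, against 24.4 and 25.4 CPM in wild type (4 of 4 fell), and those of macrophages came to 70.7 and 62.1 CPM, against 142 and 149 CPM in wild type (1 of 3 fell). The T and NK cell sums were 15.2 and 16.6 CPM in Irf2 KO, against 7.54 and 10.3 CPM in wild type (1 of 1 tested rose). Their part in the Klf10 difference was not tested.

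In the libraries labelled Bcl6 cKO, where Klf4 was highest, 3 of 13 neutrophil markers were called lower, with sums of 1405 and 1198 CPM, and 1 of 9 classical monocyte markers rose, namely Cd14. All 13 neutrophil markers had a mean below wild type, with a median of -0.82 on the log2 scale beside -0.01 for all genes. Nonclassical monocyte markers had 2 of 10 lower and 1 higher, with sums of 388 and 414 CPM, against 570 and 705 CPM in wild type. There, 1 of 6 progenitor markers and 1 of 1 T and NK cell marker rose, 1 of 4 B cell markers and 1 of 4 red cell markers fell, and macrophage and dendritic cell markers had 0 calls in limma (0 at an unadjusted p under 0.05), beside 5.01% of all genes. In Nr4a1 KO the neutrophil sums were 3246 and 2574 CPM, and 0 of 13 markers passed in limma (2 at an unadjusted p under 0.05). Nonclassical monocyte markers had 4 of 10 lower there, with sums of 500.4 and 577 CPM, while 2 of 9 classical monocyte markers, 2 of 6 progenitor markers and 1 of 1 T and NK cell marker rose. Of the B cell and red cell markers 1 of 4 each fell, and macrophage and dendritic cell markers had 0 calls in limma (0 at an unadjusted p under 0.05), beside 15.1% of all genes. The part of these markers in the Klf4 and Klf3 values was not tested either.

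Among the 18 upstream genes, Mapk7, a regulator of Klf2 and Klf4, was called lower in every knockout. It was the only call for the label Bcl6 cKO (1 of 18, beside 5.01% of all genes). The same held for Nr4a1 KO (1 of 18, beside 15.1%), while 3 of 18 were called for Irf2 KO (beside 21.6%). These falls share the same wild-type libraries, and the share of all genes lower in every knockout was not counted. Mapk7 encodes ERK5, the kinase that acts through MEF2 factors on elements like the one printed above for Klf2. Its level was 25.4 and 28.5 CPM in the libraries labelled Bcl6 cKO, 26.4 and 26.8 CPM in Irf2 KO, and 19.4 and 17.6 CPM in Nr4a1 KO, against 41.8 and 48.0 CPM in wild type. No knockout library reached the wild-type range. The falls were -0.73 ± 0.14 (adjusted p = 0.0199), -0.75 ± 0.14 (adjusted p = 0.00757) and -1.28 ± 0.14 (adjusted p = 0.000395), and the last passed in all 20 alternatives. The Irf2 KO call ended without wild-type replicate 2 (0.0533), and the Bcl6 cKO call without either wild-type library (0.0575 and 0.113) or either library labelled Bcl6 cKO (0.166 and 0.0729). It also ended after the correction for GC content and length (0.0819). Map2k5, which encodes the kinase above ERK5, stayed within 0.07 log2 units of wild type in each knockout (adjusted p of at least 0.825). Mef2a, Mef2c and Mef2d made no call against wild type. Between knockouts, 6 of the 18 upstream genes were called for Irf2 KO against Nr4a1 KO, beside 22.3% of all genes. For Bcl6 cKO, 2 were called against Irf2 KO (beside 9.55%) and 0 against Nr4a1 KO (beside 5.75%). Any link between the Mapk7 level and those of Klf2 and Klf4 was not tested.

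Spi1 and Irf8, which encode myeloid factors placed above Klf4 in monocyte formation, made no call against wild type either. Irf8 measured 207 and 241 CPM in the libraries labelled Bcl6 cKO, 272 and 218 CPM in Irf2 KO, and 189 and 212 CPM in Nr4a1 KO, against 423 and 261 CPM in wild type. The lowest of its adjusted p against wild type was 0.0505, in Nr4a1 KO (-0.73 ± 0.21).

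Cofactors of the family, both corepressors and acetyltransferases, were also counted. Of 11 genes, 2 rose and 1 fell in Irf2 KO, while 2 rose and 2 fell in Nr4a1 KO, beside 21.6% and 15.1% of all genes called in those comparisons. The libraries labelled Bcl6 cKO had 0 past the threshold in limma (3 at an unadjusted p under 0.05). Sin3b, one of the paired Sin3 corepressor scaffold genes, fell in Nr4a1 KO to 53.9 and 53.7 CPM, against 106 and 135 CPM in wild type (-1.15 ± 0.14, adjusted p = 0.000943). Hdac3, a histone deacetylase gene, fell there too (-0.88 ± 0.14, adjusted p = 0.00309), and both passed in all 20 alternatives. Sin3a, the scaffold gene best known as a partner of Klf10 and Klf13, fell in Irf2 KO (-0.48 ± 0.11, adjusted p = 0.0188), a call that ended without either wild-type library (0.0503 and 0.0985) or either Irf2 KO library (0.0689 and 0.0965).

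Kat2b, an acetyltransferase gene, rose in Irf2 KO (0.99 ± 0.13, adjusted p = 0.00268) while in Nr4a1 KO the rise was 0.68 ± 0.13 (adjusted p = 0.00872), in all 20 alternatives each. The histone deacetylase gene Hdac2 rose in the same genotypes, by 0.52 ± 0.13 (adjusted p = 0.0274) for Irf2 KO and 0.66 ± 0.13 (adjusted p = 0.0123) for Nr4a1 KO. The first Hdac2 call ended without either wild-type library (0.0709 and 0.118) or either Irf2 KO library (0.0660 and 0.154), and the second without wild-type replicate 2 (0.0714) or Nr4a1 KO replicate 2 (0.0508). The CtBP genes, partners of Klf3, did not pass in any knockout, with Ctbp1 between -0.12 and -0.06 and Ctbp2 between -0.08 and 0.31 on the log2 scale.

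Of 18 other genes of the wider KLF and SP family, 8 were in the table and 7 tested, namely Klf8, Klf9, Klf11, Sp1, Sp2, Sp3 and Sp4. Sp2, a gene of the SP branch, fell in every knockout, at 35.5 and 35.1 CPM in the libraries labelled Bcl6 cKO, 37.5 and 36.8 CPM in Irf2 KO, and 28.2 and 31.0 CPM in Nr4a1 KO, against 53.1 and 59.2 CPM in wild type. The adjusted p was 0.0164, 0.0106 and 0.00106 in that order, and the last passed in all 20 alternatives. The Bcl6 cKO call ended without either wild-type library (0.0550 and 0.0953) or either library labelled Bcl6 cKO (0.132 and 0.102), and the Irf2 KO call without wild-type replicate 2 (0.0675) or either Irf2 KO library (0.0504 and 0.0601). Both also ended after the correction for GC content and length (0.0854 and 0.0617). Sp3 rose in Nr4a1 KO (0.39 ± 0.11, adjusted p = 0.0422), a call that ended whichever of the 8 libraries was left out, with adjusted p from 0.0569 to 0.206, and after the correction for GC content and length (0.190).

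Reported target genes were examined last. Of 11 tested, 1 rose and 1 fell for the label Bcl6 cKO, Irf2 KO had 0 that rose and 4 that fell, and Nr4a1 KO had 1 that rose and 3 that fell. Over all genes the shares called were 5.01%, 21.6% and 15.1% in that order. Cd14, the endotoxin coreceptor gene that Klf4 is known to activate in monocytes, measured 100.1 and 89.8 CPM in the libraries labelled Bcl6 cKO, 16.9 and 26.8 CPM in Irf2 KO, and 106 and 79.2 CPM in Nr4a1 KO, against 47.9 and 39.2 CPM in wild type. It thus stood above wild type in both libraries labelled Bcl6 cKO and both Nr4a1 KO libraries, and below it in both Irf2 KO libraries. The Klf4 difference from wild type, on the log2 scale, was 0.44 for the libraries labelled Bcl6 cKO, 0.05 for Irf2 KO and -0.02 for Nr4a1 KO. The Cd14 differences were 1.13 ± 0.23 (adjusted p = 0.0282), -1.02 ± 0.23 (adjusted p = 0.0158) and 1.08 ± 0.23 (adjusted p = 0.0139). The first ended without either wild-type library (0.0717 and 0.141) or either library labelled Bcl6 cKO (0.199 and 0.125). The second ended without Irf2 KO replicate 1 (0.0777) or wild-type replicate 1 (0.0823), and the third without wild-type replicate 2 (0.0911) or Nr4a1 KO replicate 1 (0.0534).

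Lgals3, which encodes galectin-3 and is repressed by Klf3, fell in Irf2 KO to 2098 and 2386 CPM, against 2941 and 3204 CPM in wild type (-0.46 ± 0.12, adjusted p = 0.0307). It was one of the less stable calls, lost without either wild-type library (0.0706 and 0.150), either library labelled Bcl6 cKO (0.0511 and 0.0505) or either Irf2 KO library (0.156 and 0.0600), and after the correction for GC content and length (0.0544). Cdkn1a, the cell-cycle inhibitor p21 gene that Klf4 and Klf6 activate, fell in Nr4a1 KO (-0.70 ± 0.17, adjusted p = 0.0294), which was lost without either wild-type library (0.109 each) or Nr4a1 KO replicate 1 (0.0827). The Cdkn1a call held in 11 of 20 alternatives and ended, among others, after the correction for GC content and length (0.136) and in the authors' deposited table (0.0650). Eng, the gene of the TGF-beta coreceptor endoglin and a reported Klf6 target, fell in Nr4a1 KO as well (-1.22 ± 0.27, adjusted p = 0.0188). It was named after its values were seen, and its call ended without either wild-type library (0.0518 and 0.111) or Nr4a1 KO replicate 1 (0.0542), after the correction for GC content and length (0.106) and in the authors' deposited table (0.0609).

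**Figure D4:**
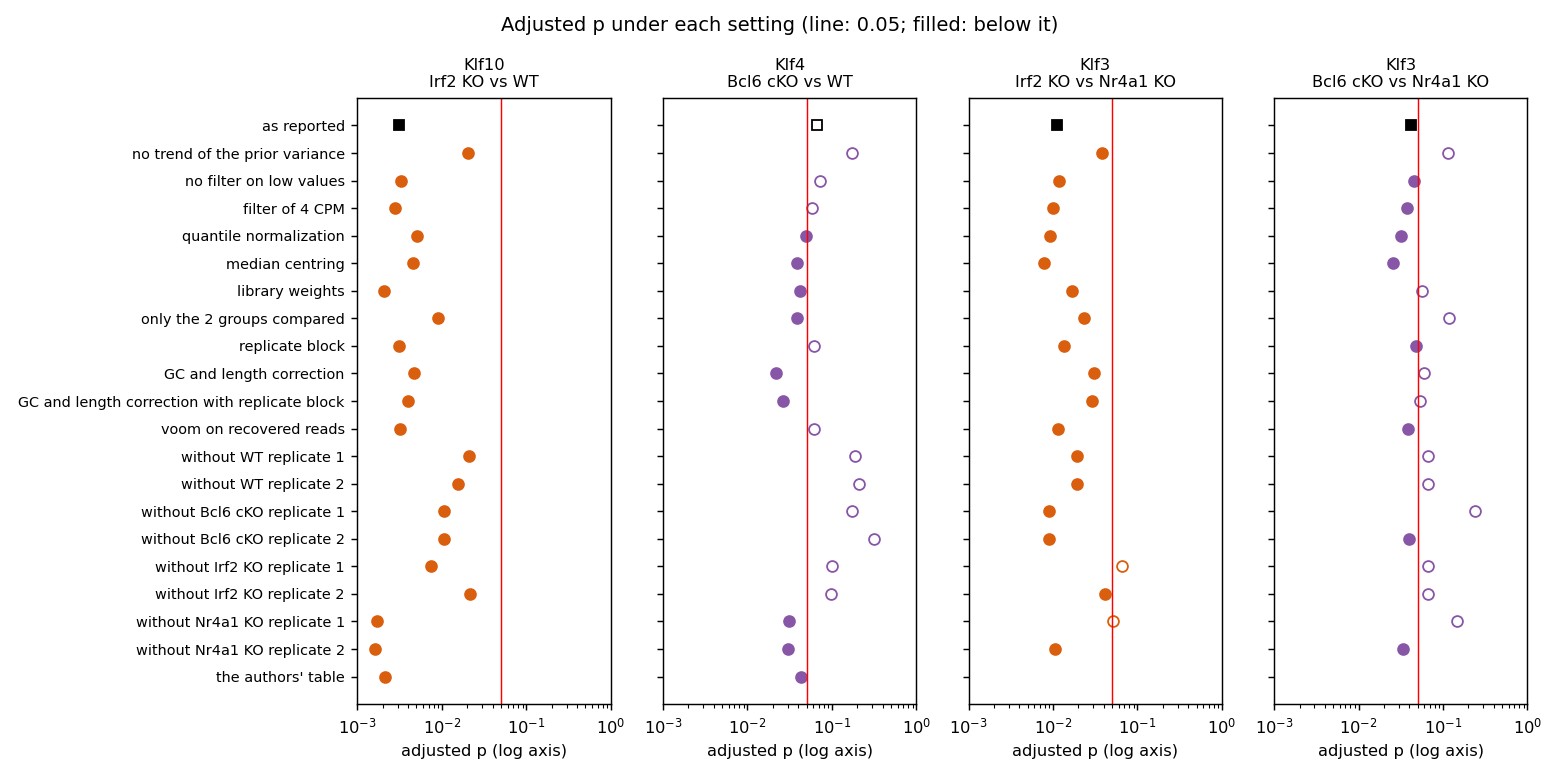
Adjusted p (horizontal log axes, line at 0.05) for Klf10 in Irf2 KO, Klf4 in the libraries labelled Bcl6 cKO, and Klf3 in both knockouts against Nr4a1 KO, under the reported settings (squares) and each alternative (circles, filled below 0.05). The Klf10 points stay below 0.05 throughout, whereas those of Klf4 and of Klf3 in both comparisons lie on both sides of it. For Klf3 in Irf2 KO, 17 of 19 alternatives lie below 0.05.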

How the data were processed

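Of 13789 lines in the authors' table, 45 repeated a gene with identical values and were dropped, which left 13744 genes. The deposited values are log2 CPM for each library. Inverting them, with 0.5 added to the reads and 1 to the scaled library total, returned whole reads throughout, within 0.01. The authors' log2 fold changes, p-values and adjusted p-values, which the file headers name, and their deposited signed fold score served only as an alternative or not at all. Tools named without a role in the submitters' processing notes are limma, Salmon, featureCounts, Subread, STAR and bcl2fastq, and the build is mm10. Per the labels' protocols, a SMARTer Ultra Low kit turned 10 ng of total RNA per library into cDNA. No source used here states whether counting used strand.

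Here limma 3.58.1 (R 4.3.3) fitted these log2 values with 4 group means, a trend of the prior variance, 4 residual and 4.66 prior degrees of freedom, for 12752 genes with a mean log2 CPM of at least 0 (1 CPM), and Benjamini-Hochberg adjustment at 0.05 over all of them. In fits without 1 library, the remaining library of that genotype was assumed to vary like the others. Gene positions, merged exon lengths and GC content came from GENCODE M21 on GRCm38. The procedure was tested on simulated data. The members and gene lists were chosen with earlier results of these data known. Named genes are the members, up to 4 called genes per list and comparison with a mean of at least 4 CPM, the targeted genes, and the nearest patterns to called members. The exceptions are the marker genes, those list genes whose missed calls are given because they belong to a pathway of a member, and Smad7 and Eng. Those 2 were called but have a mean below 4 CPM. A gene of the target list is not reported here.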

Additional observations from a re-analysis of the deposited data

How the results depend on the processing

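Under 19 or 20 alternatives per comparison, 31 of 48 results (a member in a comparison) were called neither as reported nor under any alternative, 2 of the 5 calls (Klf10 in Irf2 KO, against wild type and against Nr4a1 KO) held in all, and no called value changed sign. Among uncalled values, 19 changed sign at least once. Members called for Bcl6 cKO against wild type numbered 0 as reported and 1 (Klf4) when only the 2 groups compared were fitted, under library weights, median centring, quantile normalization, GC and length correction with or without the replicate block, and in the authors' table (0 to 1 leaving out 1 library). For Irf2 KO against wild type the count was 1, and 2 (with Klf13) when only the 2 groups compared were fitted (1 to 2 leaving out 1 library). For Nr4a1 KO against wild type it was 0 in every alternative. For Irf2 KO against Nr4a1 KO it was 2, and 3 (with Klf16) with no trend, and 1 to 4 leaving out 1 library. For Bcl6 cKO against Irf2 KO it was 1, and 0 with no trend, 2 with library weights and 3 with only the 2 groups compared. With quantile normalization the count stayed at 1, but the member called was Klf4 (adjusted p = 0.0494, limma) and not Klf10 (0.0506). The count also moved in fits that left out 1 library. For Bcl6 cKO against Nr4a1 KO it was 1, and 0 with no trend, library weights, only the 2 groups compared, or GC and length correction with or without the replicate block, 2 with a filter of 4 CPM or median centring, 3 with the replicate block, and 0 to 4 leaving out 1 library. The replicate block changed no other count, and the labels do not say that a replicate number marks shared animals or days (correlations of replicate differences between genotypes ran from -0.0029 to 0.18). The cause of these shifts was not tested. Over all genes the calls against wild type were 639 for Bcl6 cKO (33 to 930 over the alternatives), 2755 for Irf2 KO (1076 to 3190) and 1925 for Nr4a1 KO (1054 to 2321). Median centring raised the log2 fold changes by 0.07, 0.10 and 0.13 in that order. With 2 libraries per genotype, the 95% intervals of Klf2 against wild type include changes of up to about 2.0-fold.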
